A study of Mus musculus with 2 samples.

Results

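Neutrophils were examined in single-cell transcriptomes of CT26 tumours, a mouse colon carcinoma line grown in mice after injection at the caecal junction. A barcode was taken as a neutrophil when it had a mitochondrial share under 20%, at most 1 UMI (unique molecular identifier, 1 counted RNA molecule) of the tumour gene Hmga2, at least 3 UMIs summed over Csf3r, Cxcr2, Il1r2, Hdc and G0s2, at least 2 UMIs of S100a8 and S100a9, C1q genes (C1qa, C1qb and C1qc) under 2000 UMIs per 1000000 UMIs (CPM), and no UMI of Cd3d, Cd3e or Cd3g. This rule took 336 of 26063 barcodes, 134 of 13910 in the control and 202 of 12153 in the antibody group's library. The control group was dosed with IgG and the antibody group with an antibody against SLC7A11, in each case with 10 mg/kg given every 2 days, starting once tumours had reached 50 to 100 mm3. Each group was 1 library. Mouse strain, age, sex and the number of tumours pooled per library are not given in the sources used here, and the design text speaks of both an orthotopic and a subcutaneous tumour. With 1 library a group there was no replicate check and no test: every interval below is an exact 95% interval that covers counting error only, and a gene is called higher or lower when its CPM differed at least 2-fold, that is by 1 on the log2 scale.

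Neutrophils are short-lived granulocytes that are released from bone marrow under G-CSF, whose receptor is Csf3r, and enter tissue along chemokine gradients read by Cxcr2. Their granule proteins are made in bone marrow in a fixed order (primary, secondary, then tertiary granules), so that RNA of late granule and secretory genes marks recently matured cells, while tissue neutrophils make cytokines and chemokines such as Il1b and Cxcl2. In tumours, neutrophils are known for products that act on lymphocytes, among them PD-L1 (Cd274) and itaconate, which the enzyme encoded by Acod1 makes. Slc7a11, the target of the antibody, encodes the light chain of the cystine and glutamate exchanger, which brings in cystine for glutathione synthesis and pairs with the heavy chain Slc3a2.

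Because the results turn on Slc7a11, the 250 bases before its annotated start are shown, from RefSeq on GRCm38.p6, chr3:50443614-50443863, minus strand, written 5′ to 3′ along the gene. Capitals mark matches to TGATGNAA, the composite element bound by C/EBP and ATF factors, searched on both strands.
Slc7a11 upstream region: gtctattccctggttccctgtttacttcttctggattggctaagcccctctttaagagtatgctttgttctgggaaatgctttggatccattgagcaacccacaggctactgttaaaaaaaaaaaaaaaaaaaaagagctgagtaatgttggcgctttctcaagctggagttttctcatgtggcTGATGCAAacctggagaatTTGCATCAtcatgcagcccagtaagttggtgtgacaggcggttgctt
The element matched at 2 places in this window, from 66 to 59 bases before the start on the gene's strand and from 47 to 40 bases before it on the opposite strand. Of 32851 promoter windows of the same length, 3.45% held at least 1 match and 0.0396% held at least 2. The core of the antioxidant response element read by NRF2, TGACNNNGC, had 0 matches in this window and was present in 10.2% of all windows. The 2 matches did not overlap. A match is a description of letters and not a bound site.

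The neutrophil barcodes were shallow. Their median was 667.5 UMIs and 350.5 genes in the control and 800 UMIs and 419.5 genes in the antibody library, against 3505 and 4503 UMIs in C1q macrophages (barcodes with C1q genes at or above 2000 CPM, at most 1 Hmga2 UMI and no CD3 UMI, 886 and 1087 barcodes). No barcode in the deposited files was under 500 UMIs, so neutrophils under this floor were not counted and the floor can set every share given here. Only 5 control barcodes (12.9% of the neutrophil UMIs) but 26 antibody barcodes (46.8%) were over 2000 UMIs. In these deep barcodes S100a9, the neutrophil calgranulin, was at 8539.7 and 4048 CPM, against 61826 and 37653 CPM in the remaining neutrophils. The fibroblast gene Dcn (decorin) was at 2775 and 2686 CPM in them, against 264 and 137 CPM in the rest. Of the deep barcodes, 3 of 5 in the control and 11 of 26 in the antibody library were among those with the highest Scrublet doublet scores. Values are therefore given for all neutrophils and for those of at most 2000 UMIs (129 and 176 barcodes), a limit set after the data were seen.

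Most of the 15 neutrophil marker UMIs came from the 7 genes of the rule, so only the other 8 check the name. Trem1, an activating receptor of myeloid cells, was at 1433 and 612 CPM, against 71.8 and 19.5 CPM in C1q macrophages, Acod1 at 3013 and 3663 CPM against 68.1 and 298 CPM, and Stfa2l1 at 1056 and 284 CPM against 0 and 3.78 CPM. The gelatinase gene Mmp9 was at 184 and 72.9 CPM against 5.44 and 5.05 CPM, and Retnlg and Slc7a11, given with the results, were also above macrophages. Ly6g, the surface antigen used to sort mouse neutrophils, was nearly absent, with 4 and 3 UMIs, and Cxcr1 had 0 and 1. A cluster of 23 barcodes had monocyte genes and is described with the other clusters. The labels give the cell type of both samples as goblet cells, and all 7 goblet cell markers, including the mucin gene Muc2, had 0 UMIs in neutrophils of both libraries. T cell markers had 6 and 7 UMIs in all, with Cd3d, Cd3e and Cd3g at 0 by the rule. NK cell markers had 18 and 20 UMIs, B and plasma cell markers 1 and 0, mast cell and basophil markers 1 and 12, and eosinophil markers 1 and 4, with Siglecf, Ccr3, Epx and Prg2 at 0. Monocyte markers summed to 1314 and 2912 CPM and to 812 and 1302 CPM at no more than 2000 UMIs. Of these markers, Ly6c2 had 1 and 0 UMIs at no more than 2000 UMIs, while Plac8 was found in 22.4% and 48.0% of all neutrophils. C1q macrophage markers summed to 763 and 1071 CPM, dendritic cell markers to 45.9 and 1159 CPM (nearly all of it H2-Aa, with Ccr7 at 0) and fibroblast markers to 919 and 1899 CPM. Of the 39 barcode sequences found in both libraries, 0 were neutrophils. Values near the limits of the rule are a description only. Control barcodes with exactly 3 UMIs of the 5 receptor and enzyme genes (6 barcodes) had S100a9 at 62973 CPM, and those with 2 UMIs that met all other limits (3 barcodes) 5525 CPM. In the antibody library these groups held 9 and 7 barcodes, at 10573 and 21557 CPM. Barcodes that lacked S100a8 and S100a9 but met every other limit were 22 (control) and 113 (antibody), with median depths of 2526.5 and 3737 UMIs and Slc7a11 at 14.5 and 76.3 CPM. Other barcodes just outside the rule were closer to its members. Those with 1 UMI of S100a8 and S100a9 (2 control and 11 antibody barcodes) had Slc7a11 at 816 and 579 CPM, and 13 antibody barcodes with C1q less than 2-fold above its limit had S100a9 at 37452 and Slc7a11 at 617 CPM. In all, 5 control and 19 antibody barcodes met the rule but for C1q, and these belong to the C1q macrophages used for comparison.

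Neutrophils were a larger share of all barcodes in the antibody library, while the intervals of the ratio included 0 for narrower denominators. They made up 0.967% (0.810 to 1.14) of 13864 control barcodes and 1.67% (1.45 to 1.92) of 12073 antibody barcodes under the mitochondrial limit, a log2 ratio of 0.79 (0.47 to 1.12). Among barcodes with at most 1 Hmga2 UMI the shares were 3.37% (2.83 to 3.98) and 3.53% (3.06 to 4.04), a log2 ratio of 0.065 (-0.26 to 0.39). Set against neutrophils plus C1q macrophages they were 13.1% (11.1 to 15.4) and 15.7% (13.7 to 17.8), a log2 ratio of 0.25 (-0.068 to 0.58). The last 2 intervals include 0, and barcodes with 2 or more Hmga2 UMIs were 9891 of 13864 and 6346 of 12073. With at most 2000 UMIs, as neutrophils and as denominator, the log2 ratio was 0.092. Requiring at least 1000 UMIs and 500 genes gave 1.95. The part that depth had in these shares was not tested.

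Slc7a11 RNA was more concentrated in neutrophils than in any other class examined. Its level was 514 CPM (389 to 668, from 56 UMIs) in control neutrophils and 539 CPM (456 to 634, from 148 UMIs) in antibody neutrophils. In C1q macrophages it was 25.8 CPM (20.7 to 31.7) and 30.3 CPM (25.9 to 35.2), and in tumour cells with at least 2 Hmga2 UMIs 19.4 CPM (18.6 to 20.2) and 22.6 CPM (21.8 to 23.5). T cells with at least 2 CD3 UMIs had 8.40 CPM (1.73 to 24.6) and 14.6 CPM (10.5 to 19.7), and the other barcodes 22.1 and 39.7 CPM. In each library the interval for neutrophils lay above those of the other 4 classes, while the T cell interval overlapped that of macrophages in the control. Tumour cells were deeper and more numerous, so that they held 85.0% of the 2601 Slc7a11 UMIs of the control and 74.3% of the 3663 of the antibody library. Neutrophils, 0.967% and 1.67% of the barcodes, held 2.15% (1.63 to 2.79) and 4.04% (3.43 to 4.73) of them.

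A Slc7a11 UMI was found in 40 of 134 control neutrophils, 29.9% (22.3 to 38.4), and in 97 of 202 antibody neutrophils, 48.0% (41.0 to 55.1). After every barcode was thinned at random to 500 UMIs the shares were 26.1% (18.9 to 34.4) and 33.7% (27.2 to 40.6), and their intervals overlapped. At the same depth the share in C1q macrophages was 1.58% and 2.02%, in T cells 1.14% and 0.823% and in tumour cells 1.19% and 1.5%, and in each library the neutrophil interval lay above those of the other classes. No neutrophil held more than 4 (control) or 5 (antibody) Slc7a11 UMIs. Between libraries the level over all neutrophils had a log2 ratio of 0.07 (-0.38 to 0.54). In neutrophils of at most 2000 UMIs the level was 559 CPM (419 to 731) for control and 836 CPM (694 to 998) for antibody barcodes, a log2 ratio of 0.58 (0.10 to 1.07), under the 2-fold limit. In the deep barcodes it was 213 CPM (44.0 to 624, from 3 UMIs) and 202 CPM (132 to 297, from 26 UMIs).

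**Figure D1:**
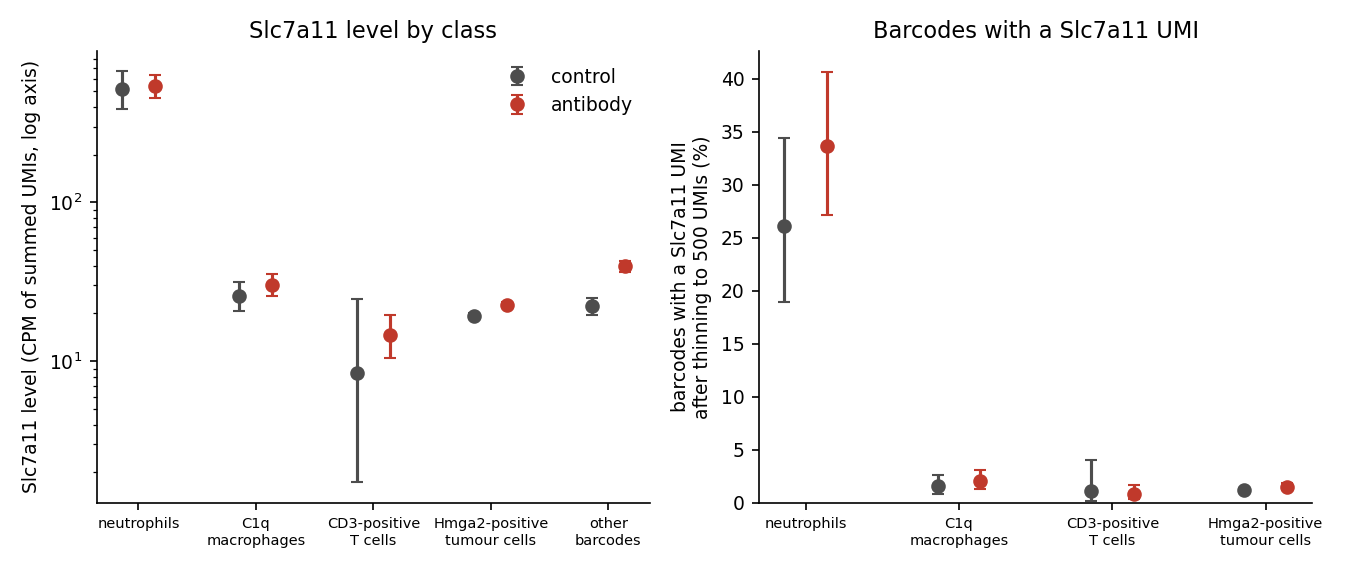
Slc7a11 by class in the control (grey) and antibody (red) libraries. The left panel gives the level in CPM on a log axis with exact Poisson intervals, and the right panel the percentage of barcodes with a Slc7a11 UMI after thinning to 500 UMIs with Clopper-Pearson intervals. Neutrophils sat at 514 and 539 CPM, and C1q macrophages, T cells and tumour cells between 8.40 and 30.3 CPM.

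The treatment comparison asks what differed in neutrophils when SLC7A11 was targeted. Paired values below give the control library first and the antibody library second. Of 2606 genes with at least 20 UMIs in neutrophils, 522 (20%) were at least 2-fold higher and 183 (7.02%) at least 2-fold lower in the antibody library. The limit of 20 UMIs was set on the sum of both libraries, whose neutrophils held 108851 and 274395 UMIs. A gene low in the control could thus pass through the antibody library alone, more easily than the reverse. In neutrophils of at most 2000 UMIs, 1535 genes reached 20 UMIs, of which 212 (13.8%) were higher and 102 (6.64%) lower. Of these, 158 were higher and 64 lower at both depths. The median log2 ratio over all genes tested was 0.21, -0.03 at no more than 2000 UMIs and -0.13 in C1q macrophages. Median-of-ratios scaling moved every log2 ratio by 0.16 and gave 630 higher and 112 lower genes. Of the 522 higher genes, 173 were at least 2-fold higher in C1q macrophages too and 4 at least 2-fold lower. Of the 183 lower genes, 18 were lower there and 12 higher. The share of all tested genes that differed 2-fold in macrophages was not computed, so these counts cannot be judged against it. The ratio of the same gene in C1q macrophages is given beside many of the neutrophil ratios as a description.

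Interferon gamma response genes were higher in antibody neutrophils. Of 20 genes of this list with at least 20 UMIs, 19 were higher and 0 lower, with a median log2 ratio of 2.05 (1.91 with Fcgr1, which had no control UMI, set to its lower bound). At no more than 2000 UMIs 15 of 16 were higher, with a median of 2.38, and the median of the same genes in macrophages was 1.44. The shares of higher genes over all genes tested were 20% and 13.8%. The 25 listed genes had 235 control and 2467 antibody UMIs. Members such as Fcgr1 (0 and 23) passed the limit of 20 UMIs through the antibody library, so the count is a description. The list summed to 2159 and 8991 CPM in neutrophils. It summed to 699 and 4049 CPM in all other barcodes under the mitochondrial limit. Irf1, a transcription factor induced by interferon gamma, was at 129 and 1308 CPM, a log2 ratio of 3.32 (2.58 to 4.23). It was 3.74 (2.96 to 4.76) at no more than 2000 UMIs and 1.83 in macrophages. Cd274, which encodes PD-L1, was at 377 and 1119 CPM, and its log2 ratio of 1.56 (1.10 to 2.08) lay beside 1.80 in macrophages. The share of neutrophils with a Cd274 UMI, thinned to 500 UMIs, was 17.9% (11.8 to 25.5) and 47.0% (40.0 to 54.2), against 4.97% and 12% of macrophages. The list holds guanylate-binding proteins and immunity-related GTPases, which act on vacuoles that hold pathogens. Of these, Gbp2 was at 82.7 and 448 CPM, Gbp5 at 91.9 and 463 CPM, and Ifi47 at 156 and 776 CPM. The log2 ratios of these 3 genes were 2.40, 2.30 and 2.29 in neutrophils and 2.53, 1.86 and 1.03 in macrophages. Cxcl10, a chemokine for CXCR3-bearing T cells, was at 358 and 1359 CPM, a log2 ratio of 1.92 in neutrophils and 0.49 in macrophages. Cxcl9, which binds the same receptor, had 1 and 59 UMIs in neutrophils (14 of the 59 at no more than 2000 UMIs), a log2 ratio of 4.21 (2.01 to 9.88), while macrophages had 64.4 and 1702 CPM. The 1 gene of the list under 2-fold was the peptide transporter Tap2, with a log2 ratio of 0.51 (-0.64 to 1.86).

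Antigen presentation genes were higher as well, and ratios of class II genes were smaller once deep barcodes were left out. Of 15 class I pathway genes 12 were higher, with a median log2 ratio of 1.28, and at no more than 2000 UMIs 7 of 10 were higher, with a median of 1.61. The shares of higher genes over all genes tested were 20% and 13.8%. In macrophages the median was 0.73. The class I heavy chain H2-D1 was at 836 and 3386 CPM, a log2 ratio of 2.01 (1.71 to 2.34), and H2-K1 at 514 and 2143 CPM, a ratio of 2.05 (1.66 to 2.48). Tap1, the partner of Tap2 in peptide transport, had 2 and 50 UMIs, a log2 ratio of 3.14 (1.38 to 6.39). Nlrc5, the transactivator of class I genes, had 3 and 45 UMIs, with 2.47 (0.93 to 4.90). Their common subunit B2m was under 2-fold, at 2333 and 4034 CPM. All 7 class II genes tested were higher, with a median of 4.05 (3.38 with H2-DMb1, which had no control UMI, at its bound). The 8 listed class II genes had 74 control and 1438 antibody UMIs in all. They passed the limit of 20 UMIs largely through the library where they were high, so their count is a description. With the deep barcodes left out 3 of 5 were higher, with a median of 2.71. Cd74, the invariant chain, was at 91.9 and 1567 CPM in all neutrophils and at 84.4 and 576 CPM at no more than 2000 UMIs, while macrophages had 3110.4 and 10198 CPM. Class II transcripts were, in macrophages, 10915 and 34094 CPM in sum, against 679.8 and 5241 CPM in neutrophils, and the part that such RNA had in the neutrophil values was not tested.

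Of 25 type I interferon genes tested 3 were higher and 0 lower, with a median log2 ratio of 0.15, where 20% of all genes tested were higher. Without barcodes over 2000 UMIs 4 of 22 were higher, beside 13.8% of all genes, with a median of 0.44, and in macrophages the median of the list was -0.20. Isg15, a ubiquitin-like antiviral protein and the gene of the list with the most UMIs, was at 5503 and 4435 CPM, with 6034 and 6571 CPM at no more than 2000 UMIs. Rsad2, which encodes the antiviral enzyme viperin, was at 1056 and 1749 CPM, with a log2 ratio of 0.73 (0.43 to 1.03) and of 1.08 (0.78 to 1.40) at no more than 2000 UMIs, beside -0.62 in macrophages. Slfn4, a schlafen gene of myeloid cells, was at 1452 and 1553 CPM, with 0.10 and 0.56 in neutrophils and -1.34 in macrophages. The 3 higher genes were Zbp1, a sensor of left-handed nucleic acids (6 and 75 UMIs), Xaf1 (5 and 36 UMIs) and Ifi204 (4 and 27 UMIs, with 0 in both libraries at no more than 2000 UMIs).

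**Figure D2:**
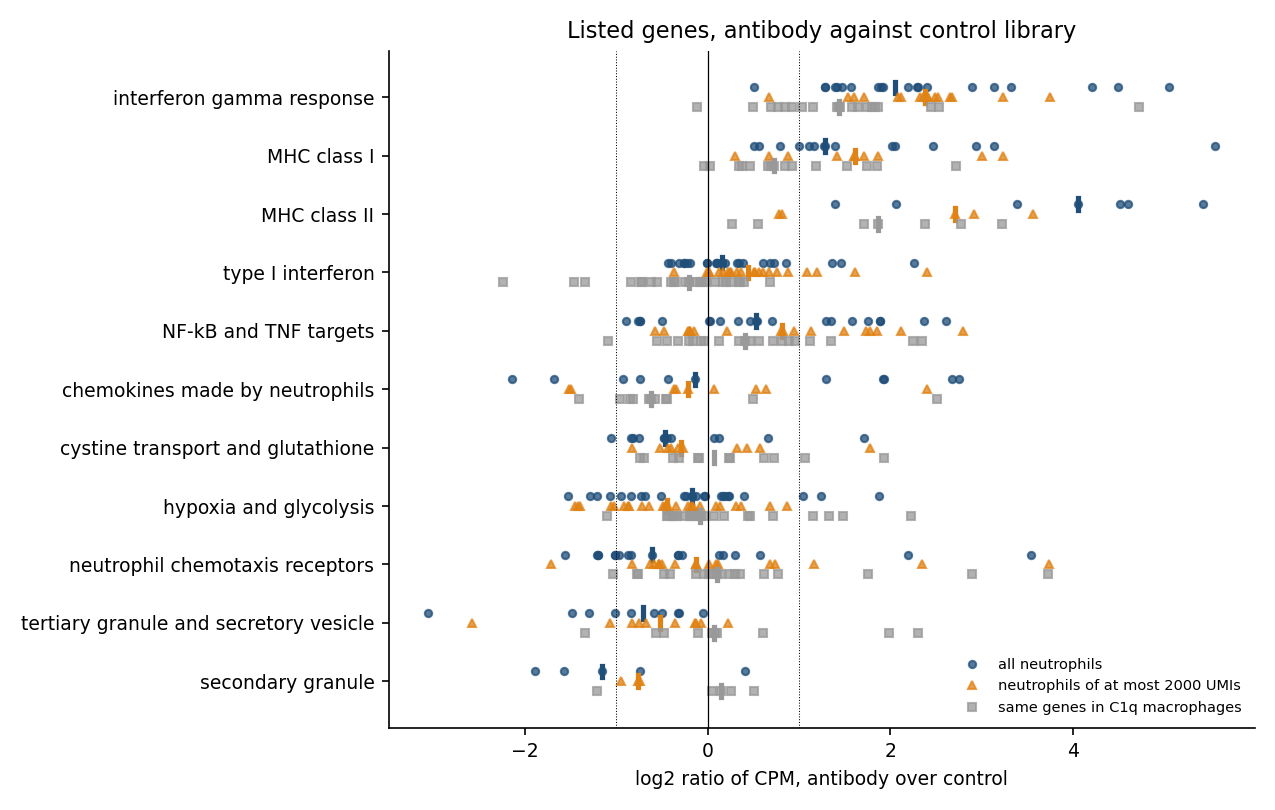
Log2 ratio of CPM, antibody over control library, for the genes of 11 lists with at least 20 UMIs. Circles are all neutrophils, triangles neutrophils of at most 2000 UMIs and squares the same genes in C1q macrophages, upright bars are list medians, and dotted lines mark 2-fold. Interferon gamma response genes lay to the right (median 2.05 in all neutrophils, 1.44 in macrophages), and tertiary granule genes to the left (median -0.71).

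Some genes of the late granule and secretory stage were lower in antibody neutrophils, fewer of them once deep barcodes were left out, with Retnlg the lowest by log2 ratio among genes with at least 50 UMIs that passed the naming filters. Retnlg, a resistin-like secreted protein of mature neutrophils, was at 2508 and 299 CPM and at 2879.8 and 479.7 CPM at no more than 2000 UMIs. Its log2 ratio was -3.06 (-3.44 to -2.71) in all neutrophils and -2.58 (-2.99 to -2.20) at no more than 2000 UMIs. After thinning to 500 UMIs, 36.6% (28.4 to 45.3) of control and 8.42% (4.98 to 13.1) of antibody neutrophils held a Retnlg UMI, so that the 2 intervals did not overlap. In macrophages it had 2 and 18 UMIs, or 0.572 and 3.24 CPM. Of 10 tertiary granule and secretory vesicle genes 4 were lower and 0 higher, with a median log2 ratio of -0.71. Without barcodes over 2000 UMIs 2 of 10 were lower, with a median of -0.52. The shares of lower genes over all genes tested were 7.02% and 6.64%. The 4 were Retnlg, the peptidoglycan-binding protein Pglyrp1 (-1.49, interval -2.10 to -0.92), the gelatinase Mmp9 (-1.30, interval -2.30 to -0.36) and the formyl peptide receptor Fpr1 (-1.02, interval -1.83 to -0.23), and of these Retnlg and Pglyrp1 were the 2 lower at no more than 2000 UMIs. Of 5 secondary granule genes 3 were lower, with a median of -1.16, and 0 of 3 at no more than 2000 UMIs, with a median of -0.76. Haptoglobin (Hp) was at 1543 and 518 CPM, with log2 ratios of -1.57 and -0.95 at the 2 depths. Lipocalin 2 (Lcn2), which binds siderophores, was at 450.2 and 200.4 CPM, with -1.16 and -0.74. Of the primary granule genes, Mpo, Elane, Prtn3, Ctsg and Bpi had 0 UMIs in both libraries, which allows up to 27.6 CPM for control and 10.9 CPM for antibody neutrophils, and the secondary granule genes Camp and Itgb2l were at 0 as well.

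Other genes lower by the naming rule were Dhrs9, a retinol dehydrogenase (827 and 179 CPM, log2 ratio -2.19, interval -2.74 to -1.69), and Cyp4f18, which oxidises leukotriene B4 (744 and 168 CPM, -2.13, interval -2.70 to -1.61). Steap4, a metalloreductase, was at 569.6 and 131 CPM, and Stfa2l1, a stefin protease inhibitor of neutrophils, at 1056 and 284 CPM. Cd84, a SLAM family receptor, was at 339.9 and 69.2 CPM, a log2 ratio of -2.25. The remaining ones were Cxcl3, Msra, Sh2d3c, Cdkn2d, Ccl6 and Hp. At no more than 2000 UMIs 11 of these 12 genes kept a log2 ratio of at least 1 in size, from -2.58 (Retnlg) to -1.25 (Stfa2l1), and Hp was at -0.95. The direction was turned for Steap4 (0.60) and Stfa2l1 (0.15) with barcodes thinned to 1000 UMIs, and for Cdkn2d (0.071) with barcodes of 1000 UMIs or more. Within the rule itself, S100a9 was at 54947 and 21921 CPM, S100a8 at 12852 and 6531 CPM, Csf3r at 1773 and 769 CPM and Cxcr2 at 1038 and 448 CPM. Their log2 ratios were -1.33, -0.98, -1.20 and -1.21 over all neutrophils and -0.72, -0.38, -0.63 and -0.59 at no more than 2000 UMIs. These genes chose the barcodes, and their values are a description.

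The 12 highest genes by the same rule were of another kind. Junb (193 and 4107 CPM), Pfn1, Tpt1, Itm2b, Chchd2, Bsg, Clta, Ier2, Cd74 and Irf1 were at least 2-fold higher in C1q macrophages as well, from 1.71 (Cd74) to 4.85 (Junb) on the log2 scale. Less their macrophage ratio, Junb, an AP-1 subunit, was at -0.45, the immediate early gene Ier2 at 0.02 and the profilin Pfn1 at 0.17, while Cd74 stood 2.34 above macrophages over all neutrophils and 1.00 at no more than 2000 UMIs. Ltb, which encodes lymphotoxin beta, had 0 and 62 UMIs, at least 8.20-fold higher, and macrophages had 0 and 23.3 CPM of it. Creg1, a lysosomal glycoprotein gene, had 0 and 56 UMIs, at least 7.41-fold higher, beside 65.8 and 291 CPM in macrophages. Irf1 was 1.49 above its macrophage ratio, 1.91 at no more than 2000 UMIs. In all barcodes under the mitochondrial limit that were not neutrophils, Ltb was at 0.132 and 23.3 CPM. All 12 genes were higher there as well, with log2 ratios from 1.91 (Creg1) to 7.42 (Ltb). Junb had 5.27, Pfn1 4.18, Tpt1 3.62 and Irf1 2.71 in these barcodes, so the differences were not particular to neutrophils or macrophages.

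Several of the genes that stood most above their macrophage ratio had much smaller ratios without the deep barcodes. Fn1, fibronectin, was at 276 and 619.5 CPM over all neutrophils and at 169 and 109.6 CPM at no more than 2000 UMIs, so that its log2 ratio went from 1.16 to -0.60. Cxcl1, a CXCR2 ligand, went from 2.75 to 0.64, and Ccl2, a monocyte chemokine, from 1.93 to 0.53. This was not so for Clec4n, the C-type lectin Dectin-2, at 322 and 488 CPM, a log2 ratio of 0.60 (0.06 to 1.18) that became 0.93 (0.36 to 1.54) at no more than 2000 UMIs, beside -1.49 in macrophages.

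**Figure D3:**
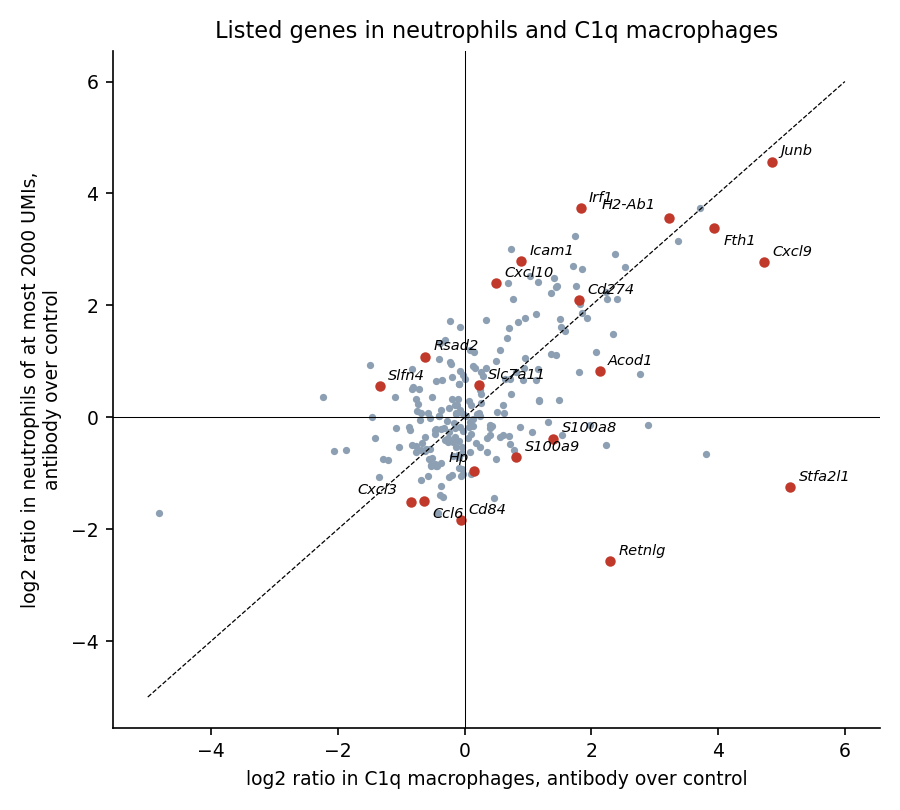
Log2 ratio of CPM, antibody over control, of listed genes in C1q macrophages (horizontal) and in neutrophils of at most 2000 UMIs (vertical), with the dashed line at equal ratios. Each point is 1 gene with at least 20 UMIs in neutrophils, and red points are named genes. Junb and Fth1 lay near the line, Irf1 and Cxcl10 above it, and Retnlg (-2.58 in neutrophils, 2.30 in macrophages) and Stfa2l1 far below it. Macrophages had only 2 and 18 UMIs of Retnlg and 0 and 21 of Stfa2l1 (control and antibody). They include 5 control and 19 antibody barcodes that met the neutrophil rule but for C1q. The direction of these genes in macrophages therefore cannot be read from this plot.

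By UMIs, Il1b and Cxcl2 were the highest of the listed cytokine and chemokine genes in both libraries. Il1b, interleukin 1 beta, was at 43463 and 25999 CPM, and Cxcl2, a CXCR2 ligand that draws further neutrophils, at 26706 and 16013 CPM. At no more than 2000 UMIs Il1b was at 48302 and 42059 CPM and Cxcl2 at 29251 and 25196 CPM, log2 ratios of -0.20 and -0.22, under the 2-fold limit at either depth. Of 11 chemokine genes 5 were higher and 2 lower, and at no more than 2000 UMIs 1 of 9 was higher and 2 lower. The shares over all genes tested were 20% higher and 7.02% lower, and 13.8% and 6.64% at no more than 2000 UMIs. Cxcl10 was the gene higher at both depths, and Cxcl3 and Ccl6 were the 2 lower at both. Cxcl3, another CXCR2 ligand, was at 2912 and 656 CPM, log2 ratio -2.15 (-2.42 to -1.88), and -1.52 (-1.80 to -1.24) at no more than 2000 UMIs. Ccl6, a CCR1 ligand, was at 4107 and 1279 CPM, log2 ratio -1.68 (-1.89 to -1.48), beside -0.65 in macrophages. The chemokines Ccl3 and Ccl4 were under 2-fold, with log2 ratios of -0.93 and -0.43.

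In the interleukin 1 list 1 of 9 genes was higher (Pycard, 5 and 32 UMIs, -0.27 at no more than 2000 UMIs) and 1 lower (the co-receptor Il1rap, -1.21, interval -1.70 to -0.72, and -0.54 at no more than 2000 UMIs). Il1r2, a decoy receptor and part of the rule, was at 2214 and 1465 CPM. Among 19 chemotaxis and adhesion genes 2 were higher and 6 lower, and at no more than 2000 UMIs 3 were higher and 1 lower. For both lists the shares over all genes tested were 20% higher and 7.02% lower, and 13.8% and 6.64% at no more than 2000 UMIs. Csf2ra, the alpha chain of the GM-CSF receptor, had 3 and 37 UMIs, a log2 ratio of 2.19 (0.63 to 4.63). Ltb4r1, the leukotriene B4 receptor, had 1 and 37 UMIs, with 3.54 (1.31 to 9.22). Both were also higher in macrophages (1.75 and 3.72). Ccrl2, an atypical chemerin receptor, had 0.57 over all neutrophils and 1.16 (0.87 to 1.46) at no more than 2000 UMIs, beside 0.15 in macrophages. Selplg, which encodes the P-selectin ligand, was the gene lower at both depths, at 349 and 117 CPM, a log2 ratio of -1.56 (-2.31 to -0.86).

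Over all genes tested, 20% were higher and 7.02% lower. Of 11 tested genes tied to tumour neutrophils 2 were higher and 4 lower. The higher ones were Cd274 and Icam1, an integrin ligand with 5 and 68 UMIs and a log2 ratio of 2.37 (1.14 to 4.10) beside 0.89 in macrophages. Lower were Cd84, Wfdc17 (1369 and 492 CPM), Wfdc21 (294 and 128 CPM) and the hypoxia-induced lipid droplet gene Hilpda (551 and 189.5 CPM), and all but Wfdc21 were lower at no more than 2000 UMIs too. Arg1 (1 and 10 UMIs) and Nos2 (2 and 1), which encode the arginine-consuming enzymes by which myeloid cells can limit T cells, were under 20 UMIs. Acod1, a neutrophil marker, was at 3013 and 3663 CPM, a log2 ratio of 0.28 (0.10 to 0.47), and 0.82 (0.64 to 1.01) at no more than 2000 UMIs. Ptgs2, the inducible cyclooxygenase, was at 524 and 547 CPM, and oncostatin M (Osm) at 2738 and 1421 CPM.

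NF-kB target genes were higher in 8 of 21 cases and lower in 0, with a median log2 ratio of 0.53, 0.81 at no more than 2000 UMIs and 0.41 in macrophages. For this and the next 2 lists, the shares over all genes tested were 20% higher and 7.02% lower. Nfkbia, the inhibitor that NF-kB induces, was at 1286 and 4752 CPM, a log2 ratio of 1.88 (1.63 to 2.15) beside 2.25 in macrophages. Tnfaip3, which encodes the deubiquitinase A20, had 8 and 70 UMIs, with 1.76 (0.74 to 3.06) beside 1.12. Of 14 AP-1 and immediate early genes 6 were higher and 1 lower. Fos was the lower one, at 5815 and 2580.2 CPM, a log2 ratio of -1.17 (-1.33 to -1.02), and Jun and Junb were higher, with 2.45 and 4.39. The order of Fos and Jun ratios held in macrophages (-0.69 for Fos, 1.36 for Jun). Among 18 survival and death genes 1 was higher and 1 lower. Mcl1, the survival factor on which neutrophils depend, was at 469 and 200.4 CPM, with -1.21 (-1.80 to -0.65) and with -1.05 (-1.73 to -0.42) at no more than 2000 UMIs, beside -0.06 in macrophages. Bcl2a1d, a related survival gene with near-identical copies among which reads can be split, had 1 and 19 UMIs, a log2 ratio of 2.61 (0.26 to 8.29).

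Counts in the cystine transport and glutathione list were small. Of 12 tested 1 was higher and 1 lower, with a median log2 ratio of -0.46, and at no more than 2000 UMIs 1 of 10 was higher and 0 lower, with a median of -0.30. Over all genes tested, 20% were higher and 7.02% lower, and 13.8% and 6.64% at no more than 2000 UMIs. The higher one was Slc3a2, the heavy chain partner of Slc7a11, at 165 and 547 CPM, a log2 ratio of 1.71 (1.02 to 2.52), beside 1.93 in macrophages. The lower one was Gpx4, which clears lipid peroxides with glutathione, with 16 and 19 UMIs and a log2 ratio of -1.06 (-2.12 to -0.03). Thioredoxin (Txn1) was at 1809.8 and 1327 CPM and Nfe2l2, the gene of NRF2, at 689 and 492 CPM. The NRF2 target Nqo1 had 0 UMIs in both libraries, and the glutathione synthesis genes Gclc (1 and 2), Gclm (0 and 3), Gss (3 and 6) and Gsr (0 and 3) were too low for a ratio. Of 8 iron and lipid peroxidation genes 2 were lower, Gpx4 and Slc40a1, and 1 higher, the ferritin heavy chain Fth1 (2526 and 22012 CPM), which was also higher in macrophages (3.93 against 3.12 in neutrophils). The light chain Ftl1 was at 10243 and 5758 CPM. The iron exporter Slc40a1 had 23 and 12 UMIs, with -2.21 (-3.41 to -1.21), beside -4.82 in macrophages. Of 6 ATF4 pathway genes Atf3 was higher (239 and 820.0 CPM, 1.82 in macrophages) and Sesn2 lower (14 and 13 UMIs, -1.39, interval -2.65 to -0.24), while Atf4 itself was at 193 and 171 CPM. In the hypoxia and glycolysis list 3 of 25 were higher and 4 lower, and at no more than 2000 UMIs 0 of 24 were higher and 5 lower, with a median of -0.45. The glucose transporter Slc2a1 had -1.07 and -0.86 at the 2 depths, and the mitophagy receptor Bnip3 -0.95 and -1.45. Among 8 NADPH oxidase genes 1 was higher and 1 lower. Rac2, the GTPase of the neutrophil oxidase, was at 661 and 222 CPM, a log2 ratio of -1.56 (-2.09 to -1.06) and -1.01 (-1.57 to -0.47) at no more than 2000 UMIs. The membrane subunit Cyba was at 1378 and 831 CPM, under 2-fold. Of 20 Fc and pattern receptor genes 3 were higher and 5 lower, and at no more than 2000 UMIs 1 of 19 was higher (Fcgr4, a receptor for IgG) and 1 lower (Lilrb4a, an inhibitory receptor). Cd14, the lipopolysaccharide co-receptor, was at 4869 and 2303 CPM, a log2 ratio of -1.08 (-1.25 to -0.91) beside -1.29 in macrophages. Of 4 maturation transcription factors Junb and Spi1 (PU.1) were higher, and both were higher in macrophages. Of 7 cell cycle genes 0 were higher and 2 lower, Top2a (13 and 14 UMIs) and Stmn1 (12 and 11 UMIs).

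Neutrophils were also compared with C1q macrophages of the same library. Of 11529 genes, 916 (7.95%) were at least 2-fold higher in neutrophils in both libraries and 2507 (21.7%) at least 2-fold lower. With neutrophils of at most 2000 UMIs the counts were 863 and 4411. Both classes were chosen on expression, so this is a description. Apart from genes of the rule, the largest ratios in favour of neutrophils, ranked by the library with the smaller one, were those of Asprv1, an aspartic protease gene (303 and 284 CPM, against 0.286 and 0.901 CPM in macrophages), and Il36g, an interleukin 1 family cytokine (395 and 361 CPM, against 0 and 1.44 CPM). Cstdc4, Mirt1, Rdh12, Steap4 and Pglyrp1 followed, with Mirt1, a long noncoding RNA, at 569.6 and 492 CPM against 4.58 and 3.24 CPM. Between libraries Asprv1, Il36g and Mirt1 were under 2-fold, at -0.09, -0.13 and -0.21. Genes shared by the classes at unequal levels included Il1b, above macrophages on the log2 scale by 3.82 (control) and 4.16 (antibody), and Cxcl2, by 3.16 and 2.87. Slc7a11 was above by 4.31 and 4.15, whereas its partner Slc3a2 was near macrophages, at 0.37 and 0.16. In the other direction, Lyz2 (lysozyme) was below macrophages by 3.19 and 1.98, and the monocyte chemokine Ccl7 by 5.45 and 3.51. Siglec1, the sialoadhesin of tissue macrophages, and the integrin gene Itga9 had 0 neutrophil UMIs in both libraries, against 101 and 77.0 CPM and 131 and 104 CPM in macrophages.

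Neutrophils varied widely among themselves, and by variance over mean Cxcl2 and Ccl4 ranked highest among single genes. With every barcode at 500 UMIs, the variance over the mean, which is about 1 for a gene that varies by counting alone, was 16.9 and 16.7 for Cxcl2 in the control and antibody libraries, and 18.2 and 15.3 for Ccl4. Among 386 genes ranked by the lower value of the 2 libraries these were the highest, followed by S100a9 (12.4 and 11.4), Cxcl3, Il1b, S100a8, G0s2 and Retnlg. The measure rises with the mean at an equal relative spread, so the ranking favours abundant genes and lists. Cxcl2 had means of 14.6 and 10.9 UMIs, while Rsad2 had 6.73 and 4.59 at means of 0.597 and 1.23 UMIs. All neutrophils were used, including the deep barcodes and those with monocyte genes. Ccl4 had a median of 0 UMIs and a maximum of 35 and 44, and was found in 38.8% and 42.1% of neutrophils. It was found in 48.2% and 39.7% of macrophages and in 10.3% and 42.2% of T cells, and at low counts free Ccl4 RNA and neutrophil Ccl4 cannot be told apart. Cxcl2 had a median of 9.5 and 6 UMIs and a maximum of 82 and 75. S100a9 had a median of 29.5 and 14 UMIs. S100a9, S100a8 and G0s2 are genes of the rule, which fixes that nearly every barcode holds calgranulin UMIs, so their place in the ranking is a description. Slc7a11, at 1.04 and 0.908, and Csf3r, at 1.29 and 1.52, were nearer to the value for counting alone. Their means were low, at 0.306 and 0.396 UMIs for Slc7a11 and 0.940 and 0.663 UMIs for Csf3r. At such means a given relative spread raises the measure less, so they are not ranked against abundant genes. Csf3r is also a gene of the rule. By list, chemokines had 27.8 and 19.7, NF-kB targets, which include Il1b and Cxcl2, 10.7 and 13.9, type I interferon genes 14.6 and 9.62, and interferon gamma genes 7.68 and 6.21. The tenth of the barcodes with the most type I interferon UMIs held 45.2% (control) and 34.3% (antibody) of them. In the control, 59.0% of neutrophils had no UMI of the interferon gamma list and the median was 0, whereas in the antibody library 9.90% had none and the median was 4.

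**Figure D4:**
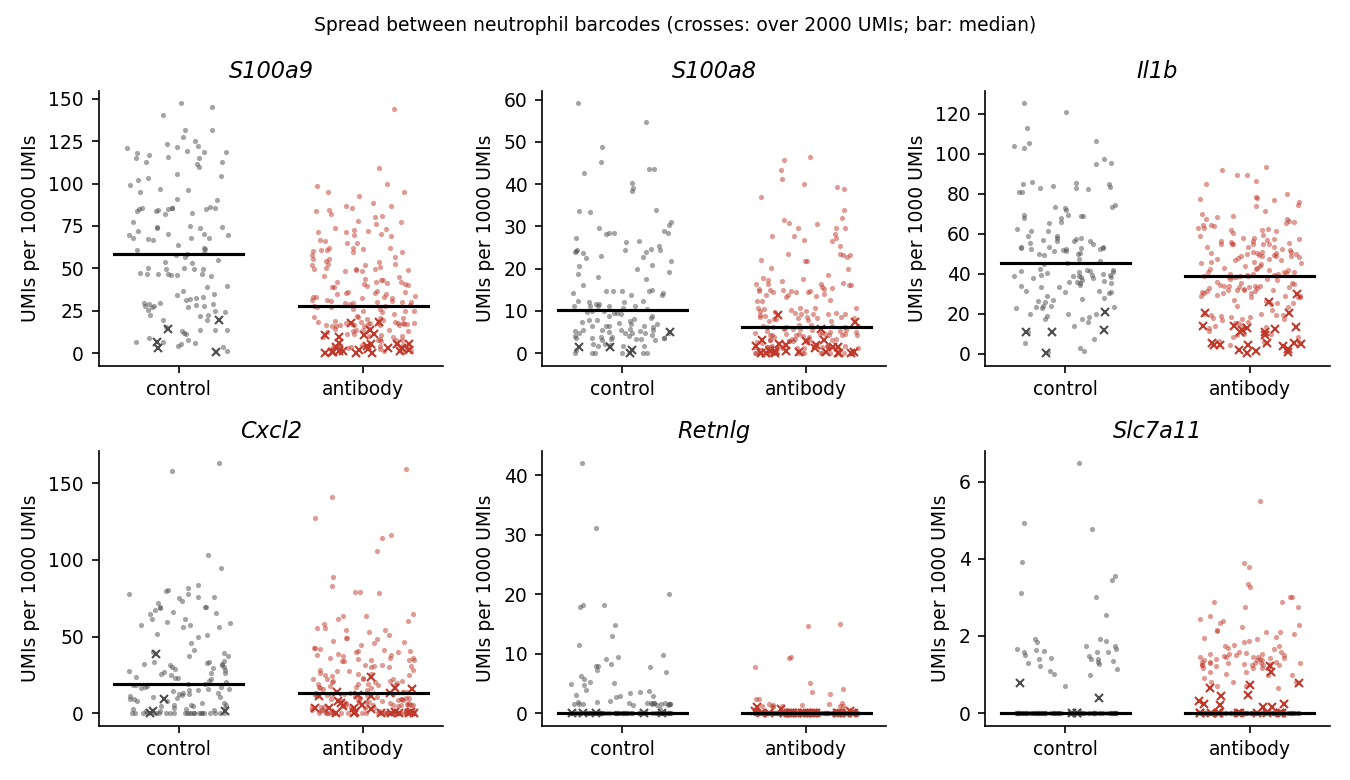
UMIs of 6 genes per 1000 UMIs in each neutrophil barcode of the control and antibody libraries, with points spread sideways at random, crosses for barcodes over 2000 UMIs and bars at the median. S100a9, S100a8, Il1b and Cxcl2 spanned a wide range in both libraries, deep barcodes lay at the low end for S100a9 and S100a8, and most barcodes had no Retnlg or Slc7a11 UMI.

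Grouping the 336 barcodes by their variable genes, each standardised within its library, gave 4 clusters, which are kept as numbers. Their leading genes defined them and are a description. Cluster 1 (61 control and 87 antibody barcodes) was led by Retnlg, Lrg1, Ripor2, Hp and Wfdc21, with the highest S100a9 (82679.6 and 42669.6 CPM) and Csf3r. Cluster 2 (52 and 55 barcodes) was led by Baiap2l1, Dcn and the metallothioneins Mt1 and Mt2, and held 3 and 12 of the deep barcodes. Its Dcn level, 1114 and 3308 CPM, stood beside fibroblast markers that summed to 1791 and 4486 CPM. Cluster 3 (16 and 42 barcodes) was led by Ifit1, Trim30c, Ifit3, Rsad2 and Cxcl10, held no barcode over 2000 UMIs, and had type I interferon genes at 49572 and 42193 CPM in sum, against 9973 and 10881 in cluster 1. Cluster 4 (5 and 18 barcodes, 2 and 13 of them over 2000 UMIs) was led by Ms4a6b, Ms4a4c, Ms4a6d, Ms4a6c and Ccr2, with Ly6c2 among its 10 leading genes. These are monocyte genes, its monocyte markers summed to 8023 and 6273 CPM, and its S100a9 was the lowest, at 17563 and 4369 CPM, so 23 of the 336 barcodes met the rule with leading genes that go against its name. Sizes are not compared between libraries, since genes that define the clusters differed between them.

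Differences between libraries recurred within clusters. Retnlg was at 5238 CPM (4567 to 5979) in control and 911 CPM (702 to 1164) in antibody barcodes of cluster 1, and at 1049 CPM (773 to 1390.4) and 151 CPM (86.2 to 245) in cluster 2. In clusters 3 and 4 it had at most 6 UMIs in a library. Genes of the interferon gamma list summed to 933 and 8047 CPM in cluster 1, 852 and 6305 in cluster 2, 8968 and 21361 in cluster 3 and 5312 and 7912 in cluster 4, higher in the antibody library in all 4. Cd274 was highest in cluster 3, at 913 CPM (456 to 1634) and 3796 CPM (3169 to 4509.9). Class II genes in cluster 4 summed to 2385 and 15995 CPM, against 335 to 1661 CPM for control and 1894 to 2037 CPM for antibody barcodes of the other clusters. Slc7a11 was found in all 4, from 325 CPM (67.1 to 950.5) to 741 CPM (504 to 1052) in the control and from 296 CPM (179 to 463) to 883 CPM (677 to 1132) in the antibody library, with cluster 1 the highest in each. Type I interferon genes in cluster 3 were not higher in the antibody library, at 49572 and 42193 CPM.

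**Figure D5:**
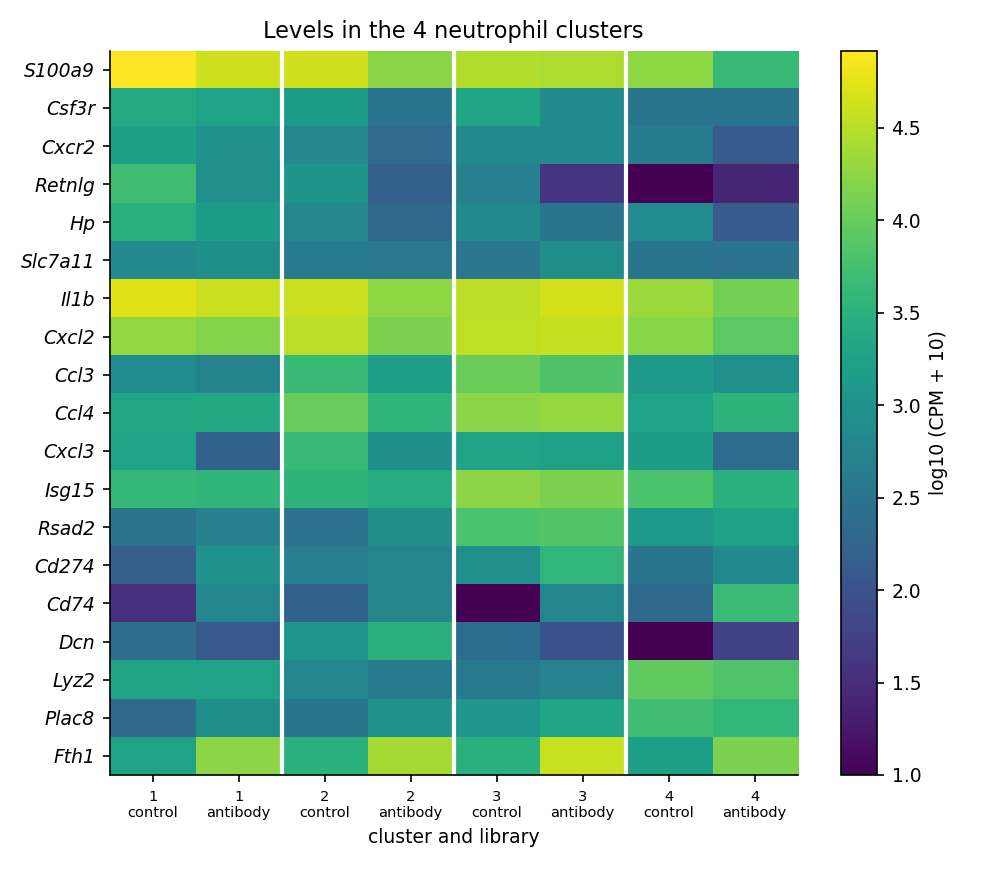
Levels of 19 genes in the 4 neutrophil clusters of each library, as log10 of CPM plus 10 (colour bar). Retnlg was highest in cluster 1 and lower there in the antibody than in the control library (5238 and 911 CPM), Rsad2 and Isg15 were highest in cluster 3, and Lyz2 and Plac8 in cluster 4.

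Neutrophils with and without a Slc7a11 UMI were compared at equal depth. The median gene differed by at most 0.10 on the log2 scale at 500 UMIs a barcode, where 35 control barcodes were positive and 99 negative, and 68 and 134 in the antibody library. S100a9 had log2 ratios, positive over negative, of 0.07 (-0.03 to 0.17) among control and 0.30 (0.20 to 0.40) among antibody barcodes, and Il1b 0.32 (0.21 to 0.43) and 0.22 (0.13 to 0.32). The intervals in this comparison treat pooled UMIs as independent and leave out the spread between barcodes. For S100a9 that spread was 12.4 and 11.4 as variance over mean. An interval that excludes 0 therefore does not show that positive and negative barcodes differ. The gene ranked highest by the smaller of its 2 ratios was Jaml, a junctional adhesion molecule of leukocytes, with 1.77 (0.67 to 2.91) and 0.98 (-0.12 to 2.07). Nfe2l2 (0.24 and 0.07) and Txn1 (0.20 and 0.19) did not reach 2-fold. Retnlg had opposite signs, with -1.63 (-2.49 to -0.94) among control and 2.21 (1.34 to 3.22) among antibody barcodes, and its antibody UMIs were 36 in positive and 15 in negative barcodes. Lowest in positive barcodes among 385 genes ranked were Bst2 (-1.46, interval -4.89 to 0.30, and -1.31, interval -2.59 to -0.33) and P4hb (-1.25, interval -3.82 to 0.29, and -1.54, interval -3.37 to -0.28). Their control ratios rest on 2 positive against 19 negative UMIs for Bst2 and 3 against 23 for P4hb, and both control intervals include 0. With barcodes thinned to 1000 UMIs, 18 control and 55 antibody barcodes were deep enough, 4 and 22 of them positive. These include the deep barcodes, 5 of the 18 and 26 of the 55, which were low in S100a9, a gene of the rule, and the S100a9 ratio was 2.14 (1.92 to 2.37) among control and 1.75 (1.58 to 1.93) among antibody barcodes. The Retnlg ratio in the control was then 1.68 (0.75 to 2.59), of the opposite sign to that at 500 UMIs.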

How the data were processed

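Single-cell RNA of 1 control and 1 antibody library was counted by the submitters, and the deposited matrices hold raw UMI counts per gene and barcode. Cell Ranger 7.2.0, Seurat and the mm10 genome are named in the submitters' processing notes, and further filters are not given in the sources used here. The control matrix held 129044329 UMIs over 13910 barcodes and the antibody matrix 143658800 over 12153, none with fewer than 500.

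The members and the gene lists were chosen with earlier results of these data known. UMIs were summed over the neutrophils of a library and divided by their total (CPM). Log2 ratios used a prior of 0.5 UMIs, only for genes with at least 20 UMIs, and a gene was called at 2-fold. Intervals at 95% are exact Poisson (levels), Clopper-Pearson (shares) and conditional binomial (ratios), and cover counting error only. A count of 0 was read as up to 3 counts. With 1 library per group no test across samples was possible. Named genes are those of the lists, the 12 highest and 12 lowest ratios (at least 50 UMIs, found in 10% of a library's neutrophils, at 0.5 times the level of the library's other cells or more), the 10 at each end of the ratio less that of macrophages, the 15 at each end of neutrophils over macrophages, the leading 10 of each cluster, and the 15 highest in Slc7a11-positive barcodes. Bst2 and P4hb, the lowest in Slc7a11-positive barcodes, fall outside this rule and were named after their values were seen.

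Doublets were not removed: Scrublet scores, with the highest 0.8% per 1000 barcodes of a library marked, marked 5 control and 15 antibody neutrophils, and leaving them out was an alternative. Clusters came from 2000 variable genes, 20 components, 15 neighbours and Leiden resolution 0.5. The limit of 2000 UMIs and thinning to 500 UMIs were chosen after seeing the data, since thinning to 1000 kept 18 and 55 neutrophils. Only the contrast of summed UMIs between libraries was tried on simulated data, which were Poisson counts with known fold changes. Such counts hold no spread between barcodes, so this checked the calculation alone. Shares, thinning, clusters, spread and the comparison by Slc7a11 UMI were not simulated. The tools were Scanpy 1.11.5, leidenalg 0.10.2, SciPy 1.17.1, NumPy 2.4.6, pandas 2.3.3 and Matplotlib 3.10.9, run in Python 3.11.15.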

Additional observations from a re-analysis of the deposited data

How the results depend on the processing

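No paired analysis was possible because each group was 1 library, and no replicate could be left out. Of the log2 ratio of the neutrophil share of barcodes (0.79), the value was 0.346 without any barcode that held a C1q UMI, 1.95 at 1000 UMIs and 500 genes or more, 0.0916 at no more than 2000 UMIs, 0.0646 among barcodes with at most 1 Hmga2 UMI and 0.254 against neutrophils plus macrophages. The 522 higher and 183 lower genes became 268 and 120 without C1q UMIs, 289 and 113 at 1000 UMIs or more, 212 and 102 at no more than 2000 UMIs, 98 and 35 thinned to 1000 UMIs, 175 and 75 thinned to 500, 81 and 48 at a minimum of 100 UMIs per gene, 1934 and 621 at a minimum of 5, and 158 and 118 at no more than 2000 UMIs less the macrophage ratio. Median-of-ratios scaling gave 112 lower genes. The Slc7a11 ratio (0.07) was 0.58 at no more than 2000 UMIs and 0.84 thinned to 1000. Genes lower than in macrophages (2507) were 4411 at no more than 2000 UMIs.

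Less the macrophage ratio, the list medians were 0.57 for interferon gamma (0.91 at no more than 2000 UMIs), 0.59 for class I and, at no more than 2000 UMIs, 0.54 for class II. The S100a9 ratio of Slc7a11-positive barcodes in the antibody library (1.75) was 0.30 thinned to 500. Among single genes and lists, a turn of sign was counted only for named genes and for list medians of at least 1 in size. Of these, signs turned for Cdkn2d at 1000 UMIs or more (0.071), and for Steap4 (0.60) and Stfa2l1 (0.15) thinned to 1000. Less the macrophage ratio over all neutrophils and at no more than 2000 UMIs, signs turned for maturation transcription factors (-0.30 and -0.14), Ltb (-1.27 and -1.34) and Junb (-0.45 and -0.28). Ltb had 0 control UMIs in neutrophils and in macrophages, so both its ratios are against 0 and the sign of their difference cannot be read. At no more than 2000 UMIs less the macrophage ratio, signs also turned for Tpt1 (-0.073) and Ier2 (-0.22). The cause was not tested. Of the other values, 144 of those that answer a comparison stayed inside their counting interval or, for counts of genes, within 1.5 times. Of single genes and smaller lists 579 did so and 90 moved by more. List medians under 1 in size could change sign and still be counted among these. Less the macrophage ratio over all neutrophils, the median of NF-kB targets went from 0.53 to -0.29 and that of chemokines from -0.14 to 0.49. All ratios are limited by the 134 and 202 barcodes and their depth.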
